A study of Mus musculus with 34 samples.

Results

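The comparison described here sets the tracheal epithelium of mice 4 months after the end of exposure to NNK against that of mice sampled before any exposure. NNK is a nitrosamine ketone formed from nicotine in tobacco and a lung carcinogen in mice. The libraries were chosen by their time label alone: 6 libraries labelled t4 and 6 labelled baseline, 12 of the 34 libraries in the series, with every gene of the knockout table examined. All 12 mice were Gprc5a-/-, that is, they lacked both copies of Gprc5a, a retinoic acid-induced receptor gene whose loss predisposes mice to lung tumours. The t4 mice had received NNK into the peritoneum at 50 mg per kg body weight, 3 times a week for 8 weeks, and were sampled 4 months later. The baseline mice had received none.

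The series followed such mice from before exposure to the end of exposure (t0, 6 mice) and to 2, 4 and 6 months after it (t2, 5 mice; t4, 6 mice; t6, 5 mice), the last being the time at which lung adenocarcinoma develops according to the design. Each library came from 1 mouse, by brushing of the trachea, and was made from poly-A RNA whose integrity number was 7 or more. The age label reads 6 to 8 weeks for every mouse, also for those sampled months after exposure, and is taken here as the age at the start. On that reading the t4 mice were older at sampling than the baseline mice. Unexposed mice of the later age were not analysed here, and an effect of NNK and an effect of age cannot be told apart.

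The tracheal surface is built from basal cells, which act as stem cells and carry Trp63 and keratin 5, from secretory club and goblet cells, from ciliated cells, and from rare tuft cells, neuroendocrine cells and ionocytes. Club cells hold most of the cytochrome P450 enzymes of the airway, which turn NNK into products that bind DNA, together with the enzymes that make such products harmless. They can also give rise to other cell types after injury. A squamous programme, in which airway cells take on keratins and envelope proteins of stratified epithelium, is a known reaction of the airway to repeated damage.

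The depth of the 12 libraries ranged from 22.7 to 29.7 M estimated counts at baseline and from 15.6 to 30.0 M at t4. Gprc5a, the deleted gene, had 17 to 41 counts per baseline library and 6 to 45 per t4 library (1.10 ± 0.32 against 1.19 ± 0.99 CPM, counts per M counts after scaling; mean ± SD, n = 6 each). The baseline group held 2 males and 4 females and the t4 group 3 of each, from the counts of Xist and Y-linked genes. Haemoglobin transcripts made up 25.5% of counts in 1 t4 library (mouse 371) and 0.373 to 3.06% in the other 5, against 0.017 to 1.52% at baseline. In a principal component analysis of log2 CPM, the first component (39.3% of the variance) placed all baseline libraries between -47.4 and -20.3 and all t4 libraries between 21.7 and 41.5. The second component (13.1%) placed t4 mouse 336 at 51, apart from the other 11 libraries. Scgb1a1, Foxj1 and Krt5, which define club, ciliated and basal cells, were present in all 12 libraries.

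**Figure D1:**
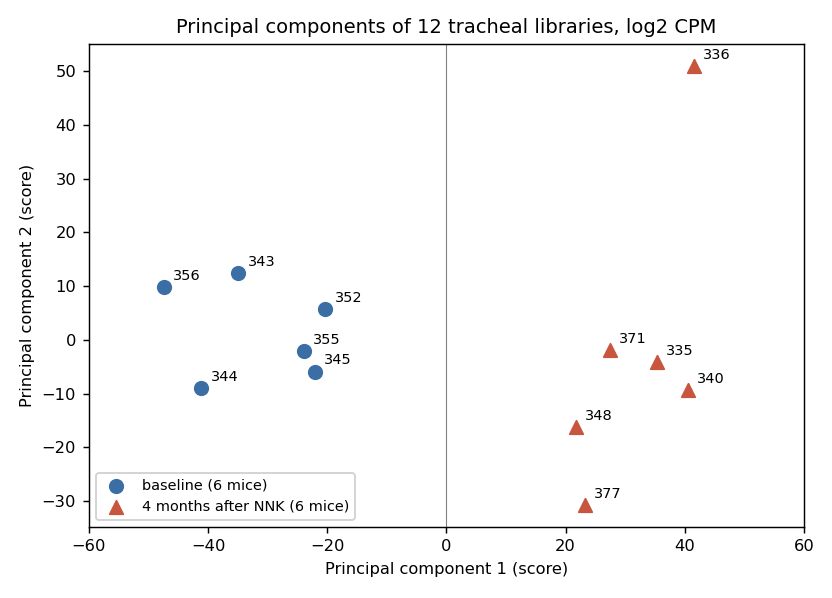
Principal components of the 12 libraries on log2 CPM, with the score on component 1 on the horizontal axis and on component 2 on the vertical axis; each symbol is 1 mouse with its number. The groups separate along component 1, and mouse 336 stands at 51 on component 2.

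Of 14847 genes tested, 2907 (19.6%) differed between t4 and baseline at an adjusted p under 0.05 in edgeR's quasi-likelihood test with Benjamini-Hochberg adjustment. Of these, 1489 (10% of genes tested) were higher at t4 and 1418 (9.55%) lower, so that 51.2% of calls were rises. These shares are the background for every count of list members called against baseline below. Scaling by library totals in place of TMM, which moved the median of all genes from 0.007 to 0.076 on the log2 scale, made 71.2% of 2120 calls rises. With TMM, 873 genes changed at least 2-fold, 518 upwards and 355 downwards. The t4 and baseline libraries did not overlap for 13.0% of the genes tested.

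The gene with the smallest p was Ppic, which encodes a cyclophilin of the endoplasmic reticulum (mm10 chr18:53406341-53418008). It stood at 54.7 (lowest), 61.0 (median) and 82.5 CPM (highest) over the 6 baseline libraries and at 16.4, 19.8 and 23.1 CPM at t4, a log2 fold change of -1.70 ± 0.14 (SE; edgeR adjusted p = 9.64e-09). Levels below are given in that order, lowest, median and highest. Several transporters and secreted proteins fell with it. Slc38a1, a sodium-coupled importer of glutamine (chr15:96571418-96642344), went from 101, 125 and 155 CPM to 16.8, 19.1 and 31.6 CPM (log2 fold change -2.57 ± 0.24, edgeR adjusted p = 1.01e-07). Slc15a2, a peptide transporter, went from 285, 416 and 542 CPM to 88.5, 117 and 135 CPM (-1.85 ± 0.19, edgeR adjusted p = 4.38e-07). In each of these genes every t4 library lay below every baseline library.

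Among the steepest falls with groups that did not overlap were Cckar, a receptor for cholecystokinin found in club cells (-4.13), Zfp521, a zinc finger regulator of progenitor cells (-3.46), Lrrn3, a leucine-rich membrane protein (-3.02), and Itih2, a carrier of hyaluronan (-2.98). Lama4, a laminin chain of basement membranes (-2.86), St8sia1, a sialyltransferase (-2.81), Serpinf1, a secreted inhibitor of vessel growth (-2.80), Bex1 (-2.78), Cacnb2, a calcium channel subunit (-2.76), and Akr1c18, a hydroxysteroid dehydrogenase (-2.69), followed. These are edgeR log2 fold changes with adjusted p from 1.62e-06 (Lrrn3) to 0.0027 (Cacnb2).

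The most certain rises began with Serpinb10, a protease inhibitor of the serpin B cluster (chr1:107529003-107549272). It was at 0.631, 1.57 and 2.60 CPM at baseline and at 11.4, 21.2 and 30.8 CPM at t4 (log2 fold change 3.76 ± 0.35, edgeR adjusted p = 1.01e-07). Bcat1, which transaminates branched-chain amino acids, went from 0.116, 0.164 and 0.364 CPM to 2.84, 9.29 and 14.7 CPM (5.33 ± 0.53, adjusted p = 3.47e-07 by the same test). Arap2, a regulator of small GTPases, went from 1.06, 1.76 and 2.47 CPM to 7.58, 8.43 and 10.4 CPM (2.27 ± 0.23, edgeR adjusted p = 4.18e-07). Parm1, a mucin-like membrane protein (1.57 ± 0.18), and Sulf2, which trims sulphate from heparan chains outside the cell (1.79 ± 0.20), both had an edgeR adjusted p of 1.62e-06. The t4 libraries of all 5 genes stood above every baseline library.

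Large rises without overlap also included Ereg (5.90), Muc13, a membrane mucin (4.93), Areg (4.74), Serpinb2 (4.71), Abcb11, a bile salt exporter (3.98), Ecm1 (3.87), Atp2a1, the calcium pump of fast muscle (3.73), and Bglap3 (3.70). Atp2a1 was not called by limma with a pseudocount of 1 (2.41, adjusted p = 0.0552) or by limma voom with quality weights (3.20, adjusted p = 0.294). Without baseline mouse 345 the value of Muc13 was 6.10, and without baseline mouse 352 that of Abcb11 was 4.72. Serpinb2 and Ecm1 are members of the squamous and cornified envelope list described below.

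**Figure D2:**
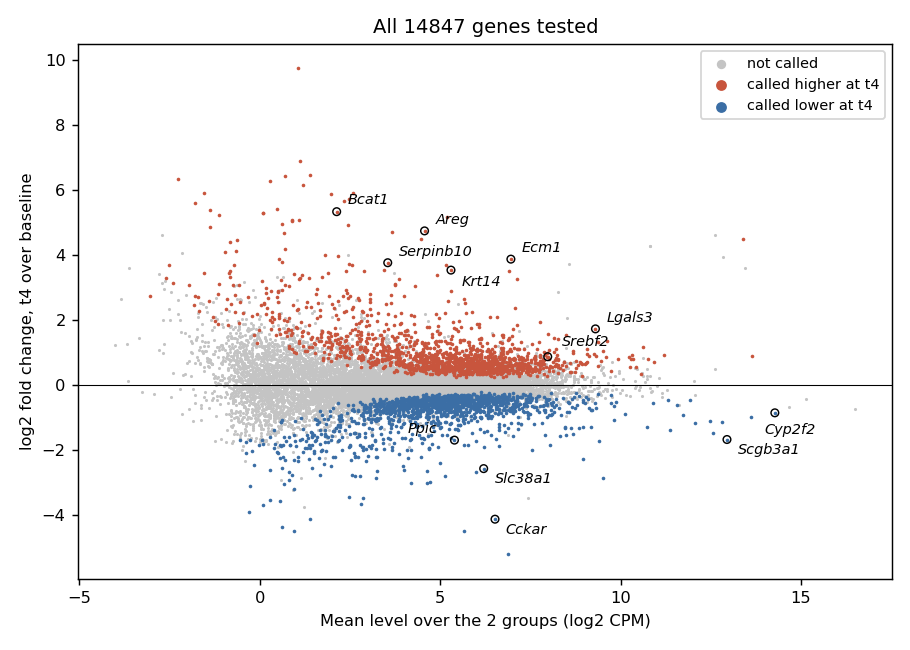
The log2 fold change of t4 over baseline (vertical axis) against the mean level in log2 CPM (horizontal axis) for all 14847 genes tested; red and blue points are genes called higher and lower, and 12 genes are circled. Among the most abundant genes, Scgb3a1 and Cyp2f2 lie below 0.

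Club cell genes fell almost as a whole. Of 14 markers of club cells, 13 were lower at t4, none was higher, and the median log2 fold change was -1.25, beside a background of 9.55% of genes called lower and a median of 0.007 over all genes. The summed level of the list fell without overlap, from 94020, 112500 and 135900 CPM to 43160, 59910 and 72630 CPM. In bulk tissue, fewer cells of a type and less RNA per cell cannot be told apart. The count stayed at 13 when any single library was left out.

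Cckar (chr5:53698485-53707705) moved furthest, from 128, 167 and 227 CPM to 2.73, 9.44 and 18.6 CPM (log2 fold change -4.13 ± 0.53, edgeR adjusted p = 1.22e-05), the highest t4 library lying far under the lowest baseline library. Scgb3a2, a secretoglobin of club cells, went from 6054, 7603 and 14950 CPM to 1594, 3508 and 3711 CPM (-1.49 ± 0.33, edgeR adjusted p = 0.00231). Its relative Scgb3a1 went from 7429, 11110 and 18320 CPM to 1790, 3790 and 6698 CPM (-1.68 ± 0.31, edgeR adjusted p = 0.000567). Neither secretoglobin showed overlap between the groups.

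Cldn10, a claudin used as a club cell marker, was at 37.3, 50.3 and 85.7 CPM and then at 6.07, 8.77 and 19.5 CPM (-2.41 ± 0.42, edgeR adjusted p = 0.000327). Cbr2, a carbonyl reductase, fell by 0.97 ± 0.21 on the log2 scale and Lypd2 fell by 1.06 ± 0.29. The exception was Scgb1a1, the best known club cell secretoglobin. It stood at 25500, 29820 and 44230 CPM at baseline and at 10910, 18830 and 31650 CPM at t4 (-0.68 ± 0.34, edgeR adjusted p = 0.156), and its groups overlapped.

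Enzymes that process foreign compounds were examined in 3 classes, against a background of 9.55% of genes called lower. Among cytochromes P450, flavin monooxygenases and epoxide hydrolase, 11 of 23 members fell, 2 rose, and the median was -0.62. Among enzymes acting on aldehydes and ketones, 10 of 23 fell, 1 rose, and the median was -0.45. Among glutathione, sulpho- and glucuronyl transferases, 12 of 32 fell, none rose, and the median was -0.50, with 7 falls once t4 mice 336 and 371 were both left out, a setting added after the data had been seen. The lists share members with the club cell list (Cyp2f2, Aldh1a1, Aldh1a7, Cbr2 and Gsta3), so they are not separate evidence.

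Cyp2f2, the main naphthalene-oxidising P450 of mouse club cells, went from 18900, 25770 and 29580 CPM to 11260, 14750 and 16310 CPM (log2 fold change -0.86 ± 0.20, edgeR adjusted p = 0.00432), with no overlap. Cyp2a5, which hydroxylates NNK, went from 5164, 7880 and 10900 CPM to 2657, 3470 and 5365 CPM (-1.11 ± 0.23, edgeR adjusted p = 0.00129). Only the highest t4 library reached above the lowest baseline one. Cyp2a4 fell by 1.25 ± 0.36 on the log2 scale, but it is nearly identical to Cyp2a5 and the split of reads between them is uncertain.

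Cyp4b1, a P450 of airway and bladder epithelium, fell by 0.91 ± 0.18, Cyp2j6 fell by 0.94 ± 0.16 and Ephx1, the microsomal epoxide hydrolase, fell by 0.93 ± 0.17. Cyp4a12a, a fatty acid hydroxylase, went from 39.3, 46.1 and 60.4 CPM to 7.58, 13.5 and 16.5 CPM (-1.91 ± 0.30, edgeR adjusted p = 7.46e-05). Its near copy Cyp4a12b is also counted among the 11. The 2 members that rose were Cyp2s1, a P450 of surface epithelium, and Cyp51, which belongs to sterol synthesis. Cyp2s1 (0.66) lost its call, at 0.60 to 0.68, without any 1 of baseline mice 343, 345, 352 and 356 and t4 mice 335, 336, 340, 348 and 371. Cyp51 (0.62) lost its call, at 0.47 to 0.60, without any 1 of baseline mice 343, 344 and 355 and t4 mice 335, 336 and 371.

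Aldh1a7, an aldehyde dehydrogenase closely related to Aldh1a1, was among the most certain falls of all genes, from 306, 338 and 479 CPM to 88.0, 130 and 138 CPM (log2 fold change -1.55 ± 0.16, edgeR adjusted p = 8.59e-07). Aldh1a1, a retinal dehydrogenase, went from 3711, 5235 and 10610 CPM to 2129, 2466 and 3355 CPM (-1.18 ± 0.23, edgeR adjusted p = 0.00078). Aox3, an aldehyde oxidase, fell by 1.33 ± 0.18 and Akr1c14, a hydroxysteroid dehydrogenase, fell by 1.94 ± 0.33. None of the 4 showed overlap. The member that rose was Aldh1a3, another retinal dehydrogenase (1.72), whose call was lost without t4 mouse 336 (1.11, edgeR adjusted p = 0.13), t4 mouse 340 (1.63), baseline mouse 345 (1.63) or baseline mouse 356 (1.51).

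Of the conjugating enzymes, Gsta3, a glutathione transferase of club cells, went from 423, 625 and 1027 CPM to 217, 268 and 303 CPM (log2 fold change -1.33 ± 0.19, edgeR adjusted p = 3.35e-05). Gstt3, a transferase of the theta class, fell by 1.23 ± 0.19. The glucuronyl transferases Ugt1a6a and Ugt1a6b, which share most of their sequence, fell by 1.29 ± 0.24 and fell by 1.35 ± 0.24. Of the 21 genes listed here as targets of NRF2, the regulator of the antioxidant response, 20 were not called, with a median of -0.22. Nqo1, the classical NRF2 target, was at 4.97, 8.47 and 14.3 CPM and then at 11.2, 14 and 18.3 CPM (0.66 ± 0.27, edgeR adjusted p = 0.0889).

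Of 19 secreted defence proteins, 7 were lower and 1 was higher, and the median was -0.70. With limma, at a pseudocount of 1 or 0.1, 4 were lower. Reg3g, a bactericidal lectin, went from 5970, 9602 and 14640 CPM to 3277, 4900 and 5508 CPM (log2 fold change -1.14 ± 0.21, edgeR adjusted p = 0.000521). Pigr, which carries immunoglobulin A across the epithelium, went from 2016, 2121 and 3882 CPM to 812, 973 and 1155 CPM (-1.30 ± 0.18, edgeR adjusted p = 2.24e-05). Complement C3 fell by 1.29 ± 0.21 and Bpifb1, a lipid-binding defence protein, fell by 1.39 ± 0.32.

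The most abundant member, Bpifa1, was at 79280, 121300 and 156700 CPM at baseline and at 38980, 59190 and 133100 CPM at t4 (log2 fold change -0.73 ± 0.31, edgeR adjusted p = 0.0954). Ltf, the iron-binding lactoferrin of glands and secretory cells, moved the other way, from 5400, 7628 and 15210 CPM to 10400, 15930 and 24220 CPM (0.89 ± 0.24, edgeR adjusted p = 0.0106). Without t4 mice 336 and 371 the call of Ltf was lost (0.63, edgeR adjusted p = 0.0965). Of 14 goblet cell and mucin genes, 4 were lower and 1 was higher, beside a background of 9.55% and 10% of all genes. Fcgbp, a mucus protein, fell by 1.74 ± 0.34 and Muc20, a membrane mucin, fell by 0.79 ± 0.20, whereas Muc4, another membrane mucin, was higher by 0.81 ± 0.17. The gel-forming mucins Muc5b (-0.63 ± 0.29, edgeR adjusted p = 0.13) and Muc5ac (0.84 ± 0.59, edgeR adjusted p = 0.325) were not called. The fall of Clca1, a secreted goblet cell protein (-2.85), rested on baseline mouse 345, at 5937 CPM: without it the value was -1.04 (edgeR adjusted p = 0.183) and 2 of the 14 genes were lower.

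Of 20 squamous and cornified envelope genes tested, 11 were higher, none was lower, and the median was 1.64 (10 to 14 higher when 1 library was left out). Their summed level went from 366.5, 466 and 865.9 CPM to 1168, 1471 and 3746 CPM, without overlap. Crct1, one of the 11, had no count in any baseline library and 43 counts over the t4 libraries, at least 19.2-fold higher against a floor of 3 counts over the baseline group. Its call was lost with limma at a pseudocount of 1 (0.39) or 0.1 (1.41) and with limma voom (2.17).

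Krt4, a keratin of stratified mucosa, went from 76.2, 124 and 224 CPM to 216, 333 and 628 CPM (log2 fold change 1.56 ± 0.28, edgeR adjusted p = 0.000428), and only baseline mouse 352 reached into the t4 range. Its partner Krt13 went from 1.20, 1.62 and 22.6 CPM to 16.4, 39.0 and 200 CPM (3.69 ± 0.80, edgeR adjusted p = 0.00255). Krt13 depended on 2 mice for its size: the value was 5.23 without baseline mouse 352 and 2.95 without t4 mouse 336. Ecm1, an extracellular protein of skin and mucosa, went from 9.98, 13.7 and 31.6 CPM to 97.0, 155 and 541 CPM (3.87 ± 0.45, edgeR adjusted p = 3.09e-06).

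Lgals3, a galactose-binding lectin of epithelium and macrophages, went from 201, 285 and 450 CPM to 623, 764 and 2147 CPM (log2 fold change 1.72 ± 0.29, edgeR adjusted p = 0.000202). Tgm1, which cross-links the cornified envelope, was higher by 1.53 ± 0.34 and Dsg3, a desmosomal cadherin, by 3.31 ± 0.54. The keratin of hyperproliferative epithelium, Krt6a, spread over 0.425 to 42.7 CPM at baseline and 4.98 to 158 CPM at t4 (2.17 ± 0.91, edgeR adjusted p = 0.0925).

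Basal cell genes did not move as one. Of 20, 7 were higher and 2 lower, with a median of 0.43. The count of rises was 4 without baseline mouse 345 and 3 without baseline mouse 356, t4 mouse 336 or t4 mouse 340, and 2, with a median of 0.04, without t4 mice 336 and 371 together. Krt14, a basal keratin induced by injury, went from 3.31, 3.92 and 18.9 CPM to 35.0, 61.6 and 147 CPM (log2 fold change 3.53 ± 0.48, edgeR adjusted p = 1.96e-05). Baseline mouse 352 held the 18.9 CPM, and without it the value was 4.24. Krt17, a keratin of basal cells under stress, went from 21.9, 28.6 and 30.5 CPM to 44.0, 73.5 and 214 CPM (1.74 ± 0.38, edgeR adjusted p = 0.00236).

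Trp63, the master regulator of basal cells, moved the opposite way, from 36.6, 37.6 and 49.5 CPM to 12.2, 18.4 and 29.3 CPM (log2 fold change -0.99 ± 0.19, edgeR adjusted p = 0.000703), with no overlap. Krt5, the constitutive basal keratin, stood at 142, 198 and 283 CPM and then at 162, 192 and 570 CPM (0.32 ± 0.27, edgeR adjusted p = 0.428). The injury keratins were thus higher while the basal regulator was lower and the basal keratin was not called.

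**Figure D3:**
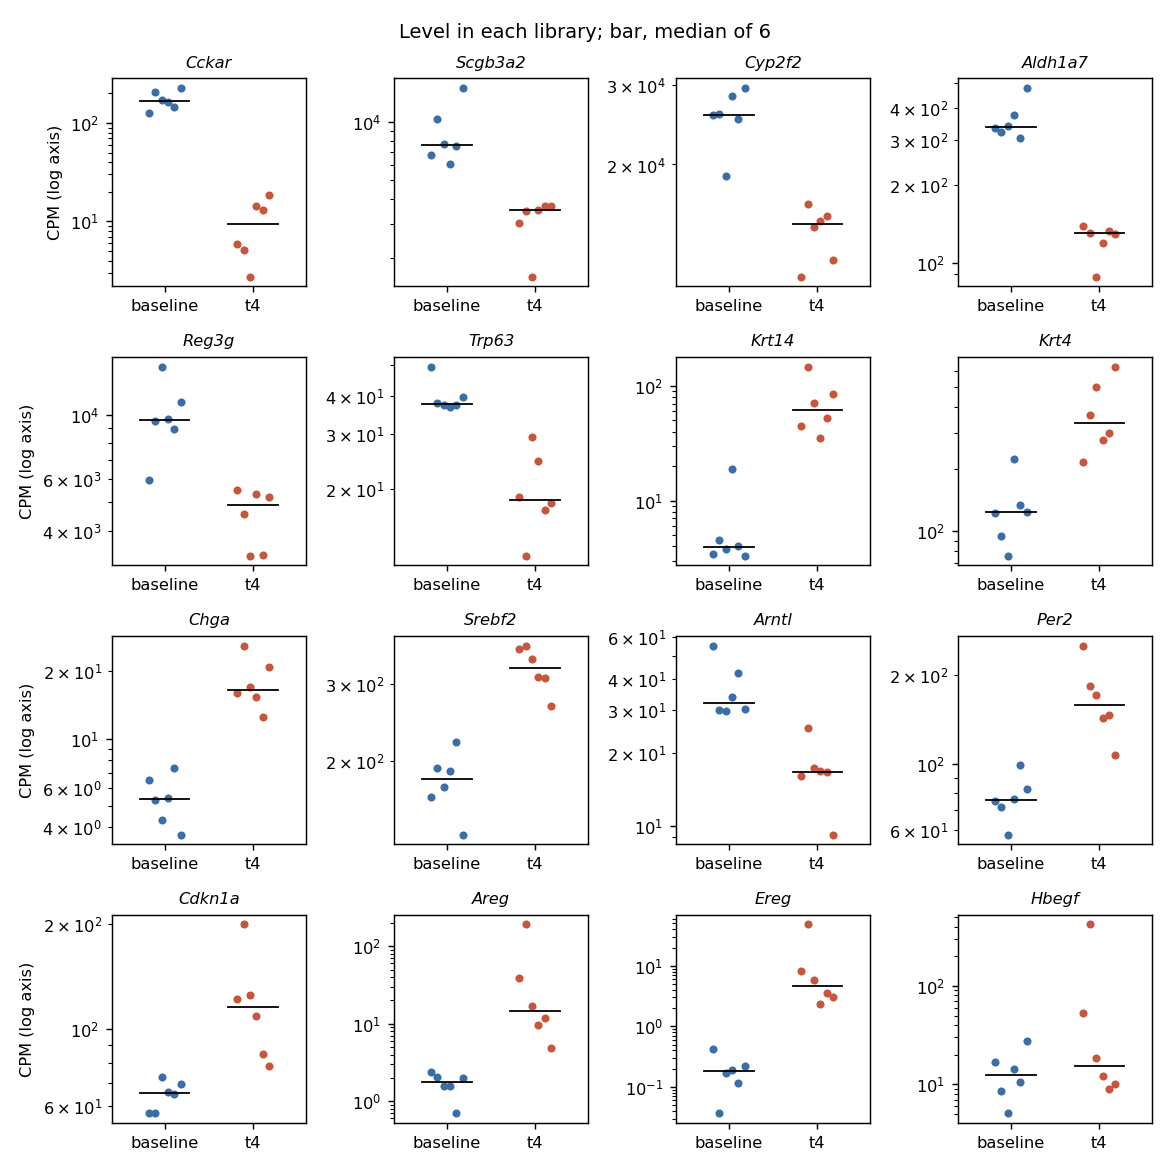
Level of 16 genes in each of the 12 libraries, in CPM on logarithmic vertical axes that differ by panel; points are mice and bars are medians of 6. Cckar, Aldh1a7 and Trp63 separate downwards, Krt14, Chga and Srebf2 upwards, and 1 t4 library stands at 192 CPM for Areg and 422 CPM for Hbegf.

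Of 13 neuroendocrine genes, all at low levels, 8 were higher, none was lower, and the median was 1.04. Their summed level went from 26.1, 33.5 and 45.5 CPM to 77.5, 81.5 and 130 CPM, without overlap. Chga, the granule protein chromogranin A, went from 3.71, 5.34 and 7.34 CPM to 12.5, 16.5 and 26.1 CPM (log2 fold change 1.73 ± 0.29, edgeR adjusted p = 0.000166). Calca, the gene of calcitonin and its related peptide, went from 3.48, 6.13 and 7.50 CPM to 9.27, 18.2 and 42.3 CPM (1.83 ± 0.35, edgeR adjusted p = 0.000675). Scg2, a secretogranin, was higher by 2.16 ± 0.44. In all 3 genes the t4 libraries stood above every baseline library. With a filter of at least 5 CPM in 6 libraries, 4 members were called, as fewer of these low genes were tested.

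Tuft cell genes were lower where they were called, 4 of 11, with a median of -0.65. Gnat3, the gustducin subunit of taste signalling, went from 8.60, 11 and 26.8 CPM to 1.36, 3.10 and 8.25 CPM (log2 fold change -1.97 ± 0.39, edgeR adjusted p = 0.000965). Rgs13, a regulator of G protein signalling, fell with it (-2.02 ± 0.45). Without t4 mice 336 and 371 there were 7 falls, and with the 5 CPM filter 2.

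Ciliated cell genes were higher for 3 of 30 and lower for none, with a median of 0.29, and the background of rises was 10%. Limma voom with quality weights called 9 higher, beside 2656 of all 14847 genes. A fit of only the t4 and baseline libraries also called 9, beside 2098 of 13983 genes. Their summed level went from 7567, 8006 and 9109 CPM to 8731, 10740 and 11220 CPM. Rfx2, a regulator of cilium genes, went from 57.1, 68.4 and 97.9 CPM to 94.8, 139 and 153 CPM (log2 fold change 0.93 ± 0.18, edgeR adjusted p = 0.00082). Foxj1, the master regulator of motile cilia, stood at 609, 673 and 961 CPM and then at 897, 1331 and 1442 CPM (0.79 ± 0.25, edgeR adjusted p = 0.0291). The call of Foxj1 was lost, at 0.74 to 0.77, without any 1 of baseline mice 343, 345, 352 and 356 and t4 mice 335, 336 and 340. The list count was then 1.

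Among 15 regulators of airway identity, 3 fell and 2 rose, beside a background of 9.55% and 10% of all genes. Elf5, an ETS factor of secretory progenitors, went from 18.3, 26.0 and 37.2 CPM to 1.53, 5.05 and 7.40 CPM (log2 fold change -2.48 ± 0.55, edgeR adjusted p = 0.0027). Ehf, a related epithelial factor, fell by 0.83 ± 0.15, while Elf3, another member of that family, was higher by 0.70 ± 0.15. Pitx1, a homeobox factor of the oral and hindlimb field, went from 7.42, 10.7 and 15.8 CPM to 29.4, 50.3 and 56.0 CPM (2.18, edgeR adjusted p = 3.35e-06). Nkx2-1, the lung lineage factor, was at 67.0, 102 and 117 CPM and at 67.1, 94.0 and 106 CPM (-0.13 ± 0.15, edgeR adjusted p = 0.592). Of 14 tight junction genes, 5 rose and 1 fell, among them the claudins Cldn3 (0.89 ± 0.21) and Cldn4 (1.30 ± 0.28).

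Of 21 cholesterol synthesis genes tested, 10 were higher, none was lower and 11 were not called, with a median of 0.48. Over all genes, 10% were called higher. For 9 of the 21 the t4 libraries stood above all baseline libraries, as they did for 855 of all 14847 genes tested. Cells make cholesterol from acetate by a chain of enzymes whose genes are switched on by SREBP2, the product of Srebf2. Srebf2 itself went from 135, 181 and 221 CPM to 267, 327 and 368 CPM (log2 fold change 0.87 ± 0.12, edgeR adjusted p = 1.58e-05). Mvd, of the mevalonate arm, was higher by 0.68 ± 0.15.

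Hmgcs1, which makes the precursor of mevalonate, was at 66.9, 80.0 and 86.4 CPM and at 103, 119 and 163 CPM (log2 fold change 0.65 ± 0.20, edgeR adjusted p = 0.0215). Without t4 mouse 335 its call was lost (0.55, adjusted p = 0.0639) and the list count was 5. Without t4 mice 336 and 371 the count was 3. The RefSeq promoter window of Hmgcs1, 250 bases before to 50 bases after the start in build GRCm38.p6 (chr13:119690101-119690400, plus strand), is shown because it was the only window among 14 of the list's genes that held a match to a sterol element, TCACNCCAC, searched on both strands. Of all 32851 windows 1.24% held one, and capitals mark it.
Hmgcs1: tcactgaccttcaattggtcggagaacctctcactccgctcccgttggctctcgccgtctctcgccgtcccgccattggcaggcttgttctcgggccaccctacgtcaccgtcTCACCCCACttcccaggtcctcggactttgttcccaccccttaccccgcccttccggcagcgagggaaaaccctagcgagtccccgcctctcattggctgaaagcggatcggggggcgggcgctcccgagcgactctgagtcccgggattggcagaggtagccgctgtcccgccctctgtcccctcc

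Of 17 fatty acid genes, 3 rose and 3 fell, beside a background of 10% and 9.55% of all genes. Fasn, the fatty acid synthase, went from 128, 181 and 216 CPM to 219, 324 and 417 CPM (log2 fold change 0.85 ± 0.14, edgeR adjusted p = 0.000196). Fads1, a desaturase, was higher by 0.70 ± 0.13. Acsl1, which activates fatty acids, went from 314, 351 and 394 CPM to 128, 192 and 228 CPM (-0.94 ± 0.14, edgeR adjusted p = 5.94e-05). Gpam, the first enzyme of triglyceride synthesis, went from 54.4, 58.0 and 93.3 CPM to 15, 26.1 and 30.6 CPM (-1.37 ± 0.18, edgeR adjusted p = 1.42e-05). No t4 library of these 4 genes overlapped a baseline library.

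Of 18 clock genes, 4 were higher and 1 lower. The mammalian clock pairs the activator BMAL1 (gene Arntl) with the repressors of the period and cryptochrome families, which peak at another hour. Arntl went from 29.8, 32.0 and 55.1 CPM to 9.20, 16.7 and 25.3 CPM (log2 fold change -1.13 ± 0.28, edgeR adjusted p = 0.00535). Per2 went from 58.0, 75.9 and 99.0 CPM to 107, 158 and 250 CPM (1.11 ± 0.21, edgeR adjusted p = 0.000562). Cry1 went from 13.5, 18.3 and 22.5 CPM to 29.5, 30.9 and 46.2 CPM (0.86 ± 0.17, edgeR adjusted p = 0.00127). These genes cycle over the day, the hour at which each mouse was sampled is not given in the sources used here, and its part in the result was not tested.

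The count of rises among clock genes was 2 without any 1 of baseline mice 344, 345, 352 and 356 and t4 mice 335 and 336, where Per1 lost its call (0.58 with all mice, 0.47 to 0.58 without 1 of these). Clock (-0.22 ± 0.14, edgeR adjusted p = 0.283), Nr1d1 (0.16 ± 0.29, edgeR adjusted p = 0.734) and Dbp (-0.08 ± 0.53, edgeR adjusted p = 0.934) were not called. The promoter window of Cry1 (chr10:85185005-85185304, minus strand, RefSeq, GRCm38.p6) is shown for its E-box CACGTG, the site bound by the activator pair, in capitals. The motif reads alike on both strands, 5 of 15 clock genes with a window held it, and so did 7.15% of all 32851 windows.
Cry1: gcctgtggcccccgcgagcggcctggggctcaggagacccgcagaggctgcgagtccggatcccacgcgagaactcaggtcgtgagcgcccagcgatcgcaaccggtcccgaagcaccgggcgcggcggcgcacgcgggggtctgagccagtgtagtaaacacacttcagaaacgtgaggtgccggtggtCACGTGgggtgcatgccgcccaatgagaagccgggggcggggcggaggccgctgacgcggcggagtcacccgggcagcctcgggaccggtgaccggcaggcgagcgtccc

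Genes of the unfolded protein response, by which cells enlarge the folding capacity of the endoplasmic reticulum, were higher for 6 of 22 and lower for none, with a median of 0.31. Without t4 mice 336 and 371 the count was 2. Sdf2l1, a chaperone cofactor, went from 20.2, 30.0 and 33.5 CPM to 35.6, 50.5 and 79.6 CPM (log2 fold change 0.88 ± 0.19, edgeR adjusted p = 0.00162). Creld2, an oxidoreductase partner, went from 50.1, 65.8 and 77.3 CPM to 82.4, 89.9 and 127 CPM (0.60 ± 0.12, edgeR adjusted p = 0.00127). Hyou1, a large chaperone, went from 103, 137 and 174 CPM to 176, 183 and 277 CPM (0.60 ± 0.15, edgeR adjusted p = 0.00658). The libraries of the groups were apart in all 3 genes. Hspa5, the main chaperone of the compartment, was at 457, 571 and 778 CPM and at 552, 719 and 1228 CPM (0.47 ± 0.17, edgeR adjusted p = 0.0511).

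The RefSeq promoter window of Creld2 (chr15:88819396-88819695, plus strand, GRCm38.p6) is shown because 7 of the 20 list genes with a window held an endoplasmic reticulum stress element, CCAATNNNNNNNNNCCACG on either strand, and of these 7 only Creld2 was called at t4. Capitals mark the element, which here lies on the opposite strand. It was found in 0.119% of all 32851 windows. The other 6 were Hspa5, Hsp90b1, Calr, Canx, Pdia6 and Dnajc3.
Creld2: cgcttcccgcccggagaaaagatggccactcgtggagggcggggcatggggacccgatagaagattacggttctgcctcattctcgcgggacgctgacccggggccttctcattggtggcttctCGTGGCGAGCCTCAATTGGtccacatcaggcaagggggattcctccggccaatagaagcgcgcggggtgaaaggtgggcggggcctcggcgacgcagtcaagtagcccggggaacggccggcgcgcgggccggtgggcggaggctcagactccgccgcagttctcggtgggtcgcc

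Genes of the protein-making and energy machinery were called in 1 direction, by small amounts, and most were not called. Of 48 cytosolic ribosomal protein genes, 21 fell and none rose, with a median of -0.48, against 14 falls when libraries were scaled by their totals. Rpl5, a protein of the large subunit, went from 163, 216 and 335 CPM to 101, 120 and 142 CPM (log2 fold change -0.92 ± 0.17, edgeR adjusted p = 0.000456). Rpl7 fell by 0.83 ± 0.16 and Rpl3 fell by 0.77 ± 0.16. Ribosomal genes have many processed copies in the genome, and how reads were shared with those is not given in the sources used here. Of 44 respiratory chain genes, 11 fell and none rose, with a median of -0.30, against 6 falls under library totals. Ndufa9, a subunit of complex I, went from 47.4, 54.2 and 78.8 CPM to 27.2, 34.7 and 40.8 CPM (-0.78 ± 0.15, edgeR adjusted p = 0.000644).

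The DNA damage and cell cycle lists had medians from -0.38 (DNA replication) to -0.01 (p53 targets), beside 0.007 over all genes. Of 27 targets of p53, which halts cycling after DNA damage, 4 were higher and 4 lower, with a median of -0.01. The background was 10% and 9.55% of all genes. Cdkn1a, the cell cycle inhibitor p21, went from 57.2, 65.3 and 72.9 CPM to 78.1, 115 and 200 CPM (log2 fold change 0.89 ± 0.22, edgeR adjusted p = 0.00629), all t4 libraries being above baseline. Pmaip1, the death factor Noxa, was higher by 1.97 ± 0.43. Ccng1, a cyclin under p53 control, went the other way, from 85.2, 96.7 and 164 CPM to 47.5, 54.8 and 66.8 CPM (-0.93 ± 0.17, edgeR adjusted p = 0.000538). Mdm2, which degrades p53, was at 80.8, 86.0 and 96.1 CPM and at 84.6, 91.9 and 138 CPM (0.18 ± 0.15, edgeR adjusted p = 0.419).

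Of 26 mitosis genes, 1 was higher (Ube2c) and 1 lower (Plk1), of 25 DNA replication genes 2 were lower (Mcm5 and Tyms), and of 25 DNA repair genes 2 were lower (Lig3 and Atm), against 19.6% of all genes called. These 6 are named after their values were seen. The list medians were -0.25 (mitosis), -0.38 (DNA replication) and -0.08 (DNA repair). The call of Ube2c (1.97) was lost without t4 mouse 371 (0.85, edgeR adjusted p = 0.202) and that of Lig3 (-0.33) without t4 mouse 335 (-0.31, edgeR adjusted p = 0.0518). Mcm5 (-0.78) lost its call, at -0.71 to -0.79, without any 1 of baseline mice 343, 345 and 356 and t4 mice 335, 336, 340 and 371, and Tyms (-0.53), at -0.44 to -0.56, without any 1 of these or of baseline mouse 355 and t4 mouse 348. Mki67, a marker of cycling cells, was at 11.3, 17.9 and 35.6 CPM and at 6.09, 14.5 and 20.2 CPM (log2 fold change -0.56 ± 0.38, edgeR adjusted p = 0.307).

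Ligands of the EGF receptor family differed widely between t4 mice. Areg, amphiregulin, went from 0.696, 1.80 and 2.36 CPM to 4.89, 14.4 and 192 CPM (log2 fold change 4.74 ± 0.88, edgeR adjusted p = 0.000624). Ereg, epiregulin, went from 0.0365, 0.184 and 0.425 CPM to 2.35, 4.67 and 48.2 CPM (5.90 ± 0.88, edgeR adjusted p = 5.12e-05). All 6 t4 mice were above baseline for both, but mouse 336 was far above the rest, and without it the values were 3.28 for Areg and 4.54 for Ereg (edgeR adjusted p = 0.00202 and 8.75e-05).

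Hbegf, a ligand released from the cell surface, was at 5.06, 12.3 and 27.9 CPM at baseline and at 8.90, 15.3 and 422 CPM at t4, the last again mouse 336. Its call (2.66) was lost without that mouse (0.57, edgeR adjusted p = 0.452). The same held for Nrg1, neuregulin (1.74, and 1.07 without it, edgeR adjusted p = 0.0912), and for the growth regulator Myc (2.06, and 1.07 without it, edgeR adjusted p = 0.074). Of 13 ligands and receptors 4 were higher, and 2 without mouse 336. The receptor Egfr itself stood at 24.4, 31.2 and 34.1 CPM and then at 29.7, 30.8 and 49.1 CPM (0.19 ± 0.17, edgeR adjusted p = 0.459). Of 32 MAPK targets and immediate early genes, 5 were higher, 1 without mouse 336, and 3 without baseline mouse 355 or t4 mouse 335. The background of rises was 10% of all genes.

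Of 21 Wnt pathway genes, 5 rose and none fell, beside a background of 10% and 9.55% of all genes. Wnt7b, a ligand made by airway epithelium, went from 91.5, 97.5 and 120 CPM to 154, 211 and 306 CPM (log2 fold change 1.10 ± 0.17, edgeR adjusted p = 9.8e-05), with no overlap. Wnt10a, another ligand, was higher by 1.71 ± 0.39 and Dkk3, a secreted modulator, by 1.39 ± 0.27. Of 18 Notch pathway genes, 4 rose and 1 fell, beside the same background. Dtx1, a ubiquitin ligase acting on Notch, went from 14.8, 19.2 and 29.6 CPM to 43.1, 52.6 and 58.0 CPM (1.29 ± 0.25, edgeR adjusted p = 0.000812). Lfng, which modifies the receptors, was higher by 0.87 ± 0.16 and Notch1 by 0.67 ± 0.15. Notch2, the receptor of secretory fate, fell by 0.59 ± 0.14.

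Loss of Gprc5a is known to release NF-kB and STAT3 signalling, and both lists were examined. Of 21 NF-kB genes and cytokines, 4 were higher and 1 lower. The count of rises was 1 without t4 mouse 336, and 2 without t4 mouse 340, baseline mouse 352 or baseline mouse 356. Nfkb2, the p52 precursor, went from 35.0, 37.9 and 44.6 CPM to 48.6, 66.1 and 106 CPM (log2 fold change 0.86 ± 0.22, edgeR adjusted p = 0.00823). Of 17 genes of the STAT3 axis, 2 were higher and 1 lower, close to the background of 10% and 9.55% of genes called in these directions, with 1 higher when t4 mouse 336 was left out. Pim1, a kinase induced by STAT3, was higher by 0.93 ± 0.23.

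Interferon-stimulated genes were lower for 7 of 30 and higher for 1, with a median of -0.45. There were 3 falls under library totals, and 4 without baseline mouse 356, t4 mouse 336 or t4 mouse 340. Ifi44 went from 65.9, 76.5 and 140 CPM to 13.1, 23.7 and 38.6 CPM (log2 fold change -1.86 ± 0.41, edgeR adjusted p = 0.00271). The RNA sensors Ddx58 (-0.89 ± 0.18) and Ifih1 (-0.77 ± 0.19) were lower without overlap. Of 21 genes of MHC class I and peptide loading, 2 rose and 2 fell, near the background of 10% and 9.55%. H2-D1 was higher by 1.18 ± 0.31 with t4 mouse 377, at 802 CPM, inside the baseline range, and class I genes are similar enough for reads to be shared.

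Markers of other cells moved with the groups, and their part in the results above was not tested. Of 20 macrophage genes 6 were higher. The count was 3 without baseline mouse 343 or t4 mouse 348 and 2 without t4 mouse 377. Summed levels were 3750 to 8615 CPM at baseline and 4904 to 12770 CPM at t4. Most of that sum was Lyz2, which was not called (799583 counts over the baseline libraries and 842913 over the t4 libraries). Cd68, a lysosomal protein of macrophages, was at 7.04, 9.54 and 11.3 CPM and at 7.35, 20.2 and 43.0 CPM (log2 fold change 1.41 ± 0.35, edgeR adjusted p = 0.00644). Summed levels of T and NK cell genes were 8.51 to 34.9 CPM at baseline and 14.3 to 49.2 CPM at t4, with 1 of 15 higher, and 3 without baseline mouse 345.

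Of 20 fibroblast and matrix genes, 8 were lower and 1 higher, with summed levels of 308.7 to 838.7 CPM at baseline and 149.3 to 375.2 CPM at t4. The count of falls was 5 under library totals and without baseline mouse 344, t4 mouse 335 or t4 mouse 371, and 4 without baseline mouse 356. Col1a1, a chain of fibrillar collagen, went from 20.6, 29.5 and 67.4 CPM to 4.25, 8.87 and 19.7 CPM (log2 fold change -1.78 ± 0.37, edgeR adjusted p = 0.00138). Mgp, a matrix protein of cartilage and vessels, fell by 1.73 ± 0.36. Of 6 genes listed for cartilage, 3 were lower, Chad among them, and 1 was higher. Chad had 78081 counts over the baseline libraries, against 230 for Col2a1 and 328 for Acan, and the cells it came from were not tested.

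Of 17 skeletal muscle genes 13 were higher, with a median of 4.00. Their summed levels were 26.9 to 92.4 CPM at baseline and 40.9 to 177 CPM at t4. Most of the baseline sum was Myh7, which was not called and leaned the other way (log2 fold change -1.50, 5574 counts at baseline and 1600 at t4). Pvalb had no count at baseline and 482 over the t4 libraries, at least 216-fold higher against 3 counts over the group, and was not called by limma with a pseudocount of 1 (1.97) or by limma voom (6.45). The count was 8 without baseline mouse 343 or 356, and 0 with limma voom and quality weights. Of 9 fat cell genes 6 were higher, with summed levels of 42.4 to 88.2 CPM at baseline and 121 to 404 CPM at t4, and 2 without t4 mouse 336. Lipe, a lipase of fat and other tissues, went from 20.8, 27.6 and 44.9 CPM to 52.6, 91.8 and 189 CPM (log2 fold change 1.78 ± 0.25, edgeR adjusted p = 2.6e-05). Adipoq, which defines fat cells, was at 0.0731 to 2.73 CPM and at 1.44 to 19.4 CPM (2.08 ± 0.82, edgeR adjusted p = 0.0715). At baseline, Pvalb was the muscle gene with no count, and every fat cell gene had counts in both groups.

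**Figure D4:**
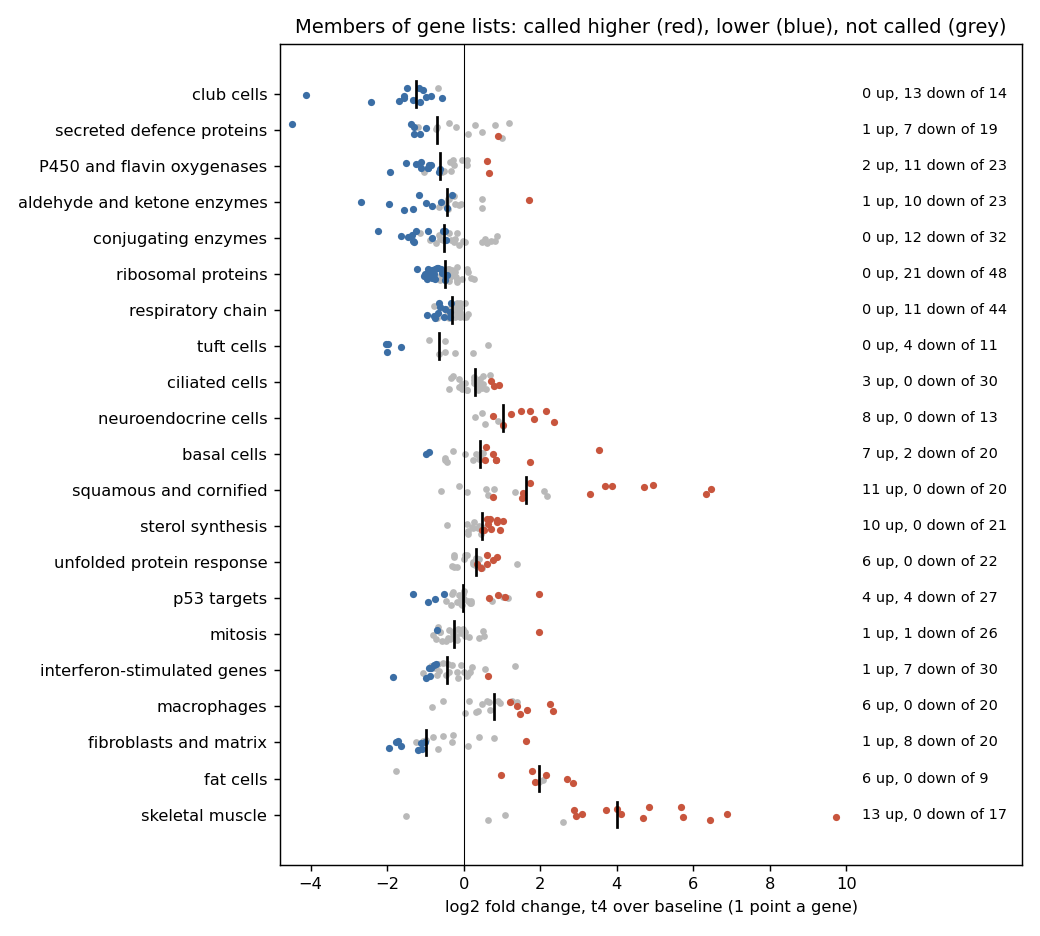
The log2 fold change of t4 over baseline (horizontal axis) for the tested members of 21 gene lists (rows), 1 point per gene, red if called higher, blue if called lower and grey if not called; vertical strokes are list medians and the counts stand at the right. Club cell genes lie left of 0, squamous, neuroendocrine and sterol genes mostly right, and p53 targets on both sides.

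The direct test of t4 against t0 asked where the epithelium at 4 months differed from that at the end of exposure. It called 4952 genes (33.4% of those tested), 2364 higher at t4 (15.9%) and 2588 lower (17.4%). The split by direction depended on the processing. Without haemoglobin genes and Rn45s, 2783 were higher and 2083 lower, and with library totals 1756 were higher and 3019 lower. Of 30 ciliated genes 28 were higher at t4 than at t0 and none lower. Of the 20 squamous genes 10 were lower, as were 11 of 20 basal genes, 16 of 27 p53 targets, 21 of 26 mitosis genes, 18 of 20 macrophage genes and 19 of 30 interferon-stimulated genes. Of the 21 sterol genes 15 were higher.

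Among club cell genes, Scgb1a1 averaged 701 CPM at t0 and 20220 CPM at t4 (log2 difference 4.85, edgeR adjusted p = 2.86e-09), and Scgb3a2 818 and 3175 CPM (1.96, edgeR adjusted p = 3.34e-05). Cckar averaged 3.25 and 9.94 CPM (1.56, edgeR adjusted p = 0.0179), far under its baseline mean of 174 CPM. By contrast Aldh1a7, at 134 CPM at t0 and 123 CPM at t4 (-0.12, edgeR adjusted p = 0.617), and Reg3g, at 4596 and 4534 CPM (-0.02, edgeR adjusted p = 0.955), were not called between these times. Cdkn1a averaged 475 CPM at t0 and 120 CPM at t4 (-1.99, edgeR adjusted p = 2e-07).

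The genes called in both tests with the smallest p against t0 were as follows. Fads3, a desaturase-like gene, averaged 45.2 CPM at baseline, 23.7 CPM at t0 and 130 CPM at t4, so t4 stood above both. The zinc transporter Slc39a6 (34.1, 24.5 and 71.2 CPM), the calcium channel Cacna1h (54.3, 18.9 and 157 CPM) and the potassium channel Kcnh3 (27.4, 9.99 and 59.3 CPM) shared this order of means. Sec14l4, a lipid-binding protein, averaged 79.3, 11.9 and 37.3 CPM, t4 lying between. Upk1b, a uroplakin of the bladder surface, averaged 116, 1167 and 231 CPM, and Capg, an actin-capping protein, 34.9, 244 and 65.5 CPM. Gria3, a glutamate receptor subunit, averaged 1.6, 10 and 0.486 CPM, Tmem229b 8.84, 35.4 and 13.2 CPM, and Ccng1 106, 232 and 55.5 CPM.

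**Figure D5:**
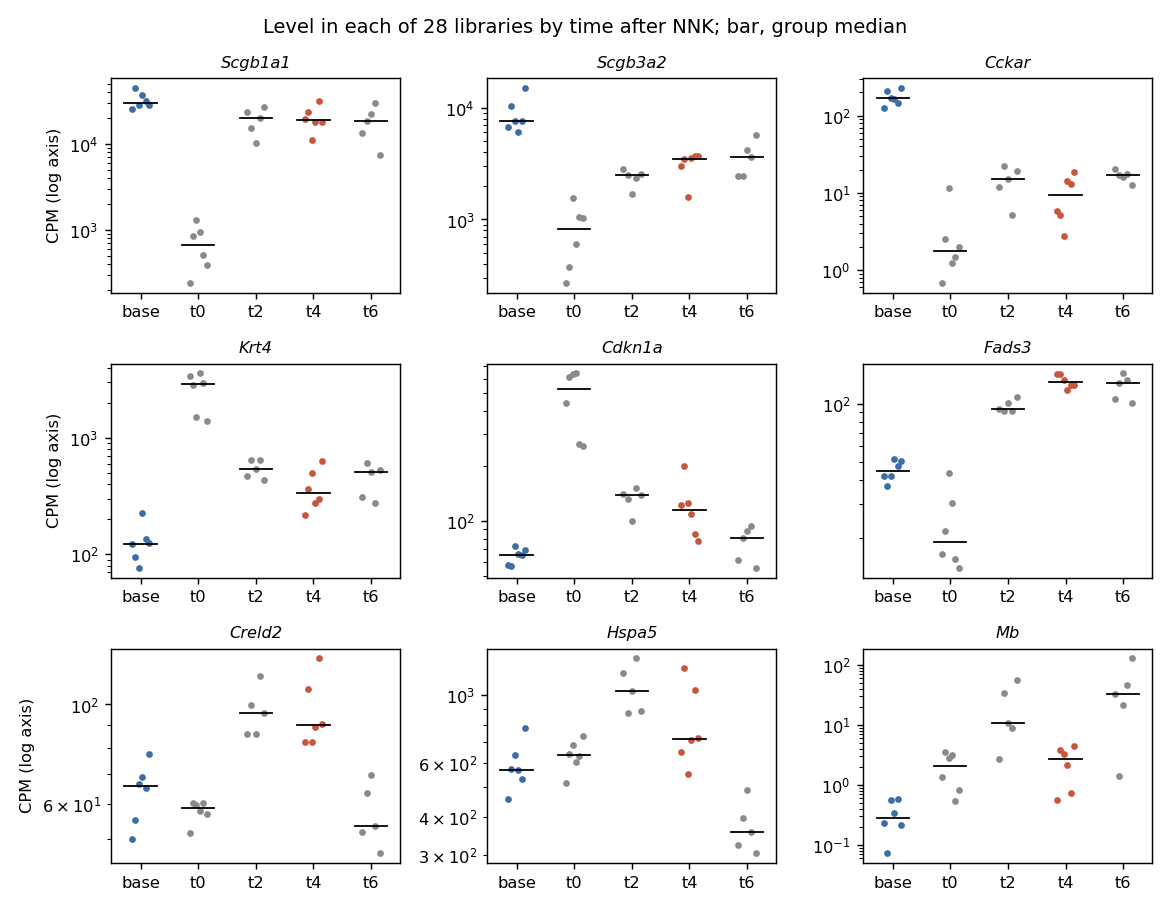
Level of 9 genes in each of the 28 knockout libraries, in CPM on logarithmic vertical axes that differ by panel, at baseline and at t0, t2, t4 and t6 (horizontal axis); points are mice and bars are group medians. Scgb1a1 has its low at t0, Krt4 and Cdkn1a their high at t0, Cckar is below baseline at all 4 later times, and Hspa5 and Creld2 are lower at t6 than at t4.

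No gene (0% of 14847) was called between t4 and t2 by edgeR, with 2035 at an unadjusted p under 0.05, and DESeq2 called 155. One t2 library, mouse 339, stood apart, with 238 counts of Gprc5a (8.06 CPM) and 14289 genes above 0. Without it and t4 mouse 371, a setting chosen after seeing the data, edgeR also called 0 genes between t4 and t2. Trp63 averaged 40.9 CPM at t2 and 20 CPM at t4 (log2 difference -1.03, edgeR adjusted p = 0.0844). The means of Chga were 16.4 CPM at t2, 18 CPM at t4 and 12.2 CPM at t6, and those of Krt4 were 546, 381 and 446 CPM.

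Between t4 and t6, 130 genes (0.876%) were called, 87 higher at t4 and 43 lower. The count was 0 without t4 mouse 336, 5 without t4 mouse 335, 25 without t4 mouse 340, 68 without t4 mouse 371 and 267 without t4 mouse 377, so the number of calls depended on single mice. Chaperones were among them. Of 18 heat shock genes 9 were higher at t4, and of 22 genes of the unfolded protein response 4. Hspa5 averaged 819 CPM at t4 and 374 CPM at t6 (log2 difference 1.13, edgeR adjusted p = 0.0138), Hyou1 209 and 108 CPM (0.95, edgeR adjusted p = 0.0138) and Creld2 96.6 and 56.9 CPM (0.76, edgeR adjusted p = 0.0138). Syvn1, a ubiquitin ligase that clears misfolded proteins (1.17), and Sh3rf1, a scaffold of stress kinases (0.98), were also higher.

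Lower at t4 than at t6 were Mb, the muscle oxygen carrier myoglobin (2.49 and 46.0 CPM, log2 difference -4.21), Pfkm, the muscle form of a glycolytic kinase (7.99 and 24.8 CPM, -1.64), Gmnn, an inhibitor of replication licensing (7.42 and 18 CPM, -1.28), Vmac (-0.69) and Wdr45, of autophagy (-0.65). Their edgeR adjusted p ranged from 0.0258 to 0.0345. Mb was itself higher at t4 than at baseline (0.333 CPM; 2.88 ± 0.86, edgeR adjusted p = 0.0203; not called by limma with a pseudocount of 1, 1.25, or by limma voom, 2.14), while Pfkm was lower (15.7 CPM; -0.98 ± 0.29, edgeR adjusted p = 0.0197). Skeletal muscle genes, which mark tissue outside the epithelium, had 3 of 17 members lower at t4 than at t6, Mb among them.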

How the data were processed

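Each library holds poly-A RNA from the tracheal brushing of 1 mouse, sequenced on an Ion Proton. The authors deposited a table of estimated counts per gene with mm10 positions. The submitters' processing notes name STAR 2.4.1d, Bowtie2 2.1.0 and Partek, and give no order or role. Of the deposited values 76.3% are whole within 0.01, and all were rounded to whole numbers for the count tests. The table has 24223 rows, of which 27 carry a symbol turned into a date and 4 share a symbol. Wild-type libraries (6) were not used.

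All 28 knockout libraries were fitted together by group in edgeR 4.0.16 (R 4.3.3) with TMM scaling and the robust quasi-likelihood test, on genes that reached 1 CPM in 5 or more libraries. Contrasts were t4 against baseline, t0, t2 and t6, adjusted by Benjamini-Hochberg across all 14847 genes and called under 0.05. Levels are CPM after TMM scaling. The p-values measure the spread between mice. On simulated t4 against baseline data over 14847 genes, recovery was 17.9% for 1.5-fold changes (12 of 67), 58.2% for 2-fold (39 of 67) and 84.8% for 4-fold (56 of 66), and 6 unchanged genes were called. Far fewer genes were changed in the simulation than were called in the real data. The adjusted threshold was therefore stricter there, and these shares do not carry over. Alternatives used DESeq2 1.42.0, limma 3.58.1 and limma voom, other scalings and filters, sex as a covariate, and leaving out libraries. Figures were drawn with matplotlib 3.10.9 in Python 3.11.15.

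The members and the 55 gene lists were chosen with earlier results of these data known. Genes named are the 10 largest rises and falls (at least 5 CPM in the higher group, groups apart), the 5 smallest p in each direction, up to 4 called members of each list and 1 that moved against them, the first 2 genes of each list, Gprc5a, and, for the other times, the 5 smallest p in each direction among genes also called against baseline. Cbr2, Crct1, Cyp2f2, Cyp2s1, Cyp4a12b, Dbp, Egfr, Krt6a, Lypd2, Nr1d1, Pvalb, Scgb3a1 and Tgm1 fall outside that rule and were chosen after their values were seen. Some genes are not reported here.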

Additional observations from a re-analysis of the deposited data

Results flagged for a closer look

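In 38 of 338 groups of libraries examined, the highest or lowest mouse stood apart from the other 5: its gap to the nearest mouse, on the log2(CPM + 1) scale for genes, relative to the range of the group, was beyond the critical value of Dixon's test. Chance marks about 1 in 20 such groups. Of the 38, 8 were t4 mouse 336.

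Mouse 336 stood high for the ligand Ereg (48.2 CPM), its receptor Egfr (49.1 CPM), Lgals3 (2147 CPM), Mdm2 (138 CPM) and Cry1 (46.2 CPM), and low for Atm (10.4 CPM), Pitx1 (29.4 CPM) and Rfx2 (94.8 CPM). Among the other t4 mice, 340 was low for Aldh1a7 (88.0 CPM) and Scgb3a2 (1594 CPM), 377 was low for H2-D1 (802 CPM) and stood apart for Muc5ac (159 CPM) and Notch1 (54.5 CPM), and 371 was high for Ube2c (46.6 CPM) and for its haemoglobin share (25.5%). Mouse 335 had the deepest t4 library, with 29.98 M counts.

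At baseline, mouse 352 was high for the squamous and basal genes Krt13 (22.6 CPM), Krt14 (18.9 CPM), Ecm1 (31.6 CPM) and Cldn4 (217 CPM). Mouse 356 was apart for Ccng1 (164 CPM), Cldn10 (85.7 CPM), Cyp2j6 (61.5 CPM), Itih2 (73.6 CPM), Notch1 (28.3 CPM) and Tgm1 (3.16 CPM), and high for the interferon-stimulated genes Ddx58 (88.1 CPM) and Ifi44 (140 CPM). Mouse 345 was apart for Cyp2f2 (18900 CPM), Muc13 (1.25 CPM) and Pigr (3882 CPM), and mouse 343 for Serpinf1 (34.8 CPM) and Trp63 (49.5 CPM). Mouse 344 was apart for Gpam (93.3 CPM), Atp2a1 (0.0365 CPM), its haemoglobin share (1.52%) and its 16696 genes above 0, and mouse 355 for Wdr45 (25.5 CPM).

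The change from baseline differed between times by direct tests in edgeR: 4952 genes differed between t4 and t0, and 130 between t4 and t6.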

How the results depend on the processing

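Of 147 named genes called at t4, 124 kept direction and call under all of the 24 alternatives in which they were tested. A gene that a filter removed from an alternative was not counted as lost there. When 1 library was left out 15 lost the call, and none reversed. Leaving out 1 library gave 1980 to 2818 calls against baseline (1017 to 1446 higher, 963 to 1372 lower) and leaving out 1 t4 library 4418 to 4889 against t0. Library totals gave 611 lower, limma voom with quality weights 5377 calls (2656 higher, 2721 lower), and a fit of only the t4 and baseline libraries 2182 lower. For these the cause was not tested. Against t2, DESeq2 called 155 genes and leaving out 1 t4 library 0 to 2. Against t6, DESeq2 called 430, library totals 56, no filter 16, limma with a pseudocount of 1 71, and leaving out 1 t4 library 0 to 267. Libraries of t0, t2 and t6 were not left out singly. Leaving out t4 mice 336 and 371 together, chosen after seeing the data, gave 2 calls against t2, 0 against t6 and 1983 against baseline, and 18 named genes lost their call. Leaving out t2 mouse 339 with t4 mouse 371, also chosen after seeing the data, gave 3593 calls against baseline. Leaving out t4 mouse 371 alone gave 2522, and the fit of only the t4 and baseline libraries gave 4280. The number of calls against baseline, 2907 in the main fit, thus moved with libraries of other times. No paired analysis was possible because the replicate numbers are animal numbers, and no number is shared between groups. In the simulation 17.9% of 1.5-fold changes were found. Far fewer genes changed there than were called here, which makes the adjusted threshold stricter, so that share does not carry over to these data.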
